A study of Mus musculus with 9 samples.

Results

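Arg1, Nos2, Trem2, Msr1 and Chil3 are genes used to describe the activation of macrophages in tumours, and their levels were followed in mouse bladders with and without an MB49 tumour. They were chosen by name as a set of macrophage activation genes, and all 5 were found among the 17097 genes that the array's probe annotation names by a single symbol. All 5 also passed the filter on low signal that kept 11969 genes, although Nos2, with a mean of 4.19 over the 9 arrays, lay just above its limit of 4.16 log2 units. Where a gene had several probe sets, the probe set with the highest mean over the 9 arrays stood for it.

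RNA from whole bladders of female C57BL/6J mice was hybridised to 9 Affymetrix arrays, in experiments numbered 1 and 2 by the labels. Tumours were started by coating the bladder with poly-L-lysine and then instilling cells of MB49, a mouse bladder carcinoma line, and tumour bladders were taken on day 12. The treated tumours received alpha1-oleate, a complex of an alpha-lactalbumin peptide with oleate, into the bladder on 5 occasions from day 3 to day 11, at 1.7, 8.5 or 17 mM. The sham-treated tumours received the buffer PBS. Experiment 1 held 1 array each of healthy bladder given PBS, of sham-treated tumour and of tumour at each dose. Experiment 2 held 1 array each of healthy bladder given PBS, of sham-treated tumour and, from mice labelled as without tumour, of bladder taken 24 h and 7 d after 17 mM. Every mouse was of the same strain and sex, every tumour came from the 1 cell line, and no label gives an age. The labels do not say how many animals stood behind an array, so p-values measure the spread between these arrays, which may be technical. Since each treated group had 1 array, its spread was taken from the sham-treated tumours and healthy bladders, which had 2 arrays each. With the experiment as a block, the shift between experiments is removed. What remains is how far the difference between sham-treated tumour and healthy bladder changed from experiment 1 to experiment 2.

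Macrophages that enter a tumour take on a range of states, and the 5 genes mark different parts of that range. Arginase 1 (Arg1) splits arginine into ornithine and urea, and inducible nitric oxide synthase (Nos2) turns the same amino acid into nitric oxide, so the pair is the textbook contrast between the alternatively activated macrophage induced by IL-4 and IL-13 and the classically activated one induced by interferon-gamma and bacterial products. Msr1, the class A scavenger receptor, takes up modified lipoproteins and debris, and Trem2 is a lipid-sensing receptor that signals through the adaptor Tyrobp. Chil3, also called Ym1, is a secreted chitinase-like lectin of alternatively activated mouse macrophages. Other cells make some of them too: Arg1 is also a urea cycle enzyme of the liver, and Chil3 is also made by immature neutrophils.

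Several features of the arrays bear on every value below. Levels were compared within an experiment. The sorted intensities of its arrays differed from their mean by 0.022 log2 units on average, and those of the 2 experiments by 0.329. Fitted differences drew on all 9 arrays with the experiment as a block. They can therefore differ from those within an experiment: at 17 mM Trem2 lay 0.29 above sham in the fit and 0.07 above it within experiment 1. The urothelium markers, all 16 of them measured, averaged 10.79 and 10.3 in the healthy bladders and 7.64 and 6.82 in the sham-treated tumours of experiments 1 and 2. The array labelled healthy at 24 h went against its label in part. Its proliferation markers averaged 6.15, against 3.74 in the healthy bladder and 8.23 in the sham-treated tumour of its experiment. Its urothelium markers averaged 9.74, against 10.3 and 6.82, and its smooth muscle markers 10.07, against 9.78 and 7.82. Both were nearer to the healthy bladder. Its liver-secreted Alb lay at 8.8, against 3.85 in the healthy bladder and 3.78 in the sham-treated tumour. Alb was also at 8.83 in the 8.5 mM and 10.15 in the 17 mM tumour, against 4.04 in the sham-treated tumour of experiment 1. Of 18 listed liver markers 10 were tested, and their mean level was 6.32 at 8.5 mM, 7.21 at 17 mM and 6.58 on the 24 h array, and between 4.52 and 5.36 on the other 6 arrays. RNA of bladder tissue cannot tell fewer macrophages from less RNA per macrophage.

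Arg1 was the member that separated tumour from healthy bladder by the most. On the log2 scale of the arrays it lay at 3.61 in the healthy bladder of experiment 1, at 8.64 in the sham-treated tumour, and at 8.03, 8.13 and 6.98 in the tumours given 1.7, 8.5 and 17 mM. In experiment 2 it lay at 3.18 in the healthy bladder, 7.93 in the sham-treated tumour, 5.84 on the array labelled healthy at 24 h and 3.48 at 7 d. Within each experiment the tumour arrays were higher than the arrays labelled healthy, and the 17 mM array was the lowest tumour of experiment 1. How many of all genes separated in this way was not counted, for Arg1 or for the members below. Arg1 rose by 4.89 ± 0.12 on the log2 scale (limma, SE, 2 arrays against 2) in sham-treated tumours, with an adjusted p of 0.0024, and the rise was 5.03 in experiment 1 and 4.75 in experiment 2. Both healthy values lay below the low-signal limit of 4.16, so no fold is given against them. In that comparison 28.6% of the 11969 genes tested passed upwards and 28.6% downwards, and 4 of the 5 members passed upwards. Of these, Arg1, Nos2 and Chil3 lay below 4.16 in both healthy bladders. They met the filter only through the arrays where they were high, so this count cannot be weighed against the share over all genes.

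Nos2, the enzyme that competes with arginase for arginine, lay close to the limit of low signal on all 9 arrays. Its log2 level was 4.09 in the healthy bladder of experiment 1, 4.53 in the sham-treated tumour, and 4.26, 4.13 and 4.11 at 1.7, 8.5 and 17 mM. In experiment 2 it was 4.02 in the healthy bladder, 4.46 in the sham-treated tumour, 3.98 at 24 h and 4.12 at 7 d. The sham-treated tumours were the highest arrays in both experiments, and the 8.5 and 17 mM tumours lay within 0.04 of their healthy bladder. Only the sham-treated tumours and the 1.7 mM tumour exceeded the limit of 4.16, so Nos2 was tested at all through the arrays where it was high, against levels below that limit. The difference of 0.44 ± 0.09 in sham-treated tumours was the same in both experiments and passed (adjusted p = 0.0261, limma). It was not called without the experiment as a block (adjusted p = 0.57). Relative to the macrophage markers, a scaling that moved the median of all genes to -2.77, it was -2.32.

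Msr1 had levels of 4.5 in the healthy bladder of experiment 1, 8.97 in the sham-treated tumour, and 8.29, 7.79 and 7.61 at 1.7, 8.5 and 17 mM. In experiment 2 the levels were 4.68 in the healthy bladder, 8.03 in the sham-treated tumour, 6.48 at 24 h and 4.8 at 7 d. Within each experiment the tumours lay above the bladders labelled healthy, and each higher dose had a lower level. The 24 h array again lay between the sham-treated tumour and the healthy bladder. Msr1 rose by 3.91 ± 0.32 in sham-treated tumours, or 15-fold (adjusted p = 0.00465), with 4.47 in experiment 1 and 3.35 in experiment 2. Of its 4 probe sets, 3 lay above the filter and were 3.10 to 4.47 higher in the sham-treated tumour of experiment 1 and 1.61 to 3.35 higher in that of experiment 2. The fourth, below the filter with a mean of 2.76, was 0.66 and 0.33 higher.

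Trem2, the other receptor, had no called difference in any comparison made here with the arrays as deposited. Its level was 4.89 in the healthy bladder of experiment 1, 5.92 in the sham-treated tumour, and 6.0, 5.94 and 5.99 at 1.7, 8.5 and 17 mM. In experiment 2 it was 5.05 in the healthy bladder, 5.22 in the sham-treated tumour, 5.25 at 24 h and 5.53 at 7 d. All 4 tumours of experiment 1 lay within 0.08 of each other and above their healthy bladder, whereas in experiment 2 the sham-treated tumour was 0.17 above its healthy bladder and the 7 d array was the highest. The fitted difference of 0.60 ± 0.25 between sham-treated tumour and healthy bladder did not pass (adjusted p = 0.133, limma). With all arrays quantile-normalized together it was 0.61 and passed (adjusted p = 0.0363), as did the other 4 members. The second Trem2 probe set, with a mean of 3.83 and below the filter, was 0.09 lower in the sham-treated tumour of experiment 1 and 0.3 lower in that of experiment 2, so the probe sets differed in sign. Trem2's adaptor Tyrobp rose by 3.20 ± 0.15 in sham-treated tumours (adjusted p = 0.00256).

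Chil3 was at 3.55 in the healthy bladder of experiment 1, at 6.95 in the sham-treated tumour, and at 5.97, 6.44 and 6.13 at 1.7, 8.5 and 17 mM. In experiment 2 it was at 2.93 in the healthy bladder, 6.02 in the sham-treated tumour, 5.31 at 24 h and 3.07 at 7 d. Every treated tumour lay below the sham-treated tumour and far above the healthy bladder, in no order of dose. Chil3 rose by 3.25 ± 0.12 in sham-treated tumours (adjusted p = 0.0024, limma), with 3.40 in experiment 1 and 3.09 in experiment 2, from healthy values below the limit of 4.16.

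**Figure D1:**
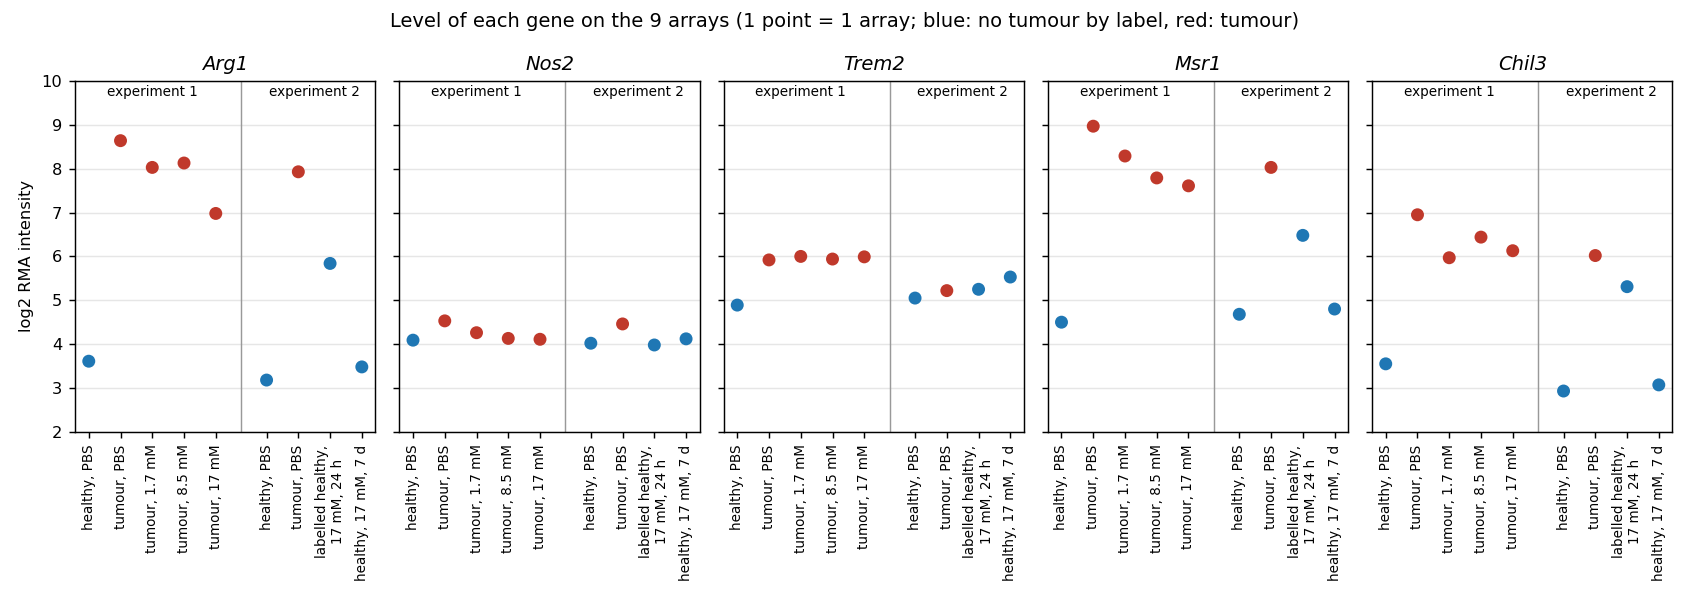
Level of each of the 5 genes (log2 RMA intensity, vertical axis) on each of the 9 arrays (horizontal axis, split by experiment), with 1 point per array, blue where the label gives no tumour and red where it gives one. Within each experiment Arg1, Msr1 and Chil3 were higher on the tumour arrays than on the arrays labelled healthy. For these 3 genes the 24 h array lay between the sham-treated tumour and the healthy bladder of its experiment. Nos2 and Trem2 stayed between 3.98 and 6.0 throughout.

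Promoters were matched in RefSeq (build GRCm38.p6) for Chil3 and Trem2, and not for Arg1, Nos2 and Msr1. They are shown because no other member was matched. Each is the stretch of 250 bases that ends just before the gene's start, read 5′ to 3′ on the gene's strand, from chr3:106167565-106167814 on the minus strand for Chil3 and chr17:48346151-48346400 on the plus strand for Trem2.
Chil3: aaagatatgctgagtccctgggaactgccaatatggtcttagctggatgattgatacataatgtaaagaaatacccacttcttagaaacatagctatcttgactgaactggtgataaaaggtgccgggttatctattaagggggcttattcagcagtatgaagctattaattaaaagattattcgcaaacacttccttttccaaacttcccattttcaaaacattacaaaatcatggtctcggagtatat
Trem2: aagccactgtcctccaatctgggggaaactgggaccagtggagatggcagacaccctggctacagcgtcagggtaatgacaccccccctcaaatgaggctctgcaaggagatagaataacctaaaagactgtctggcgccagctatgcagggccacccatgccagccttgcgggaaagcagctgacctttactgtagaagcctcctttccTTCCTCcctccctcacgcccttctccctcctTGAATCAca
Capitals mark matches, on either strand, to the 5 motifs searched, which were TATAAA (the core promoter box), the STAT6 site (TTC and GAA with 4 bases between), TGANTCA (AP-1 type), GAGGAA (PU.1 core) and TTGCNNAA (C/EBP type). Trem2 held TGANTCA from 9 to 3 bases before the start and GAGGAA on the opposite strand from 40 to 35 bases before it, while Chil3 held none of the 5 in this window. Of 32841 promoters of the same length, 6.75% held TGANTCA, 23.3% GAGGAA, 12.4% TATAAA, 5.85% the STAT6 site and 9.57% TTGCNNAA. A match is a description of the letters and not of a bound factor.

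The treated tumours ask how the 5 genes differed from sham treatment at each dose of alpha1-oleate, and Arg1 at 17 mM was the only member and dose that passed. At 17 mM it fell by 1.59 ± 0.15 on the log2 scale against sham-treated tumours, or 3.01-fold (adjusted p = 0.0192, limma, 1 array against 2). In that comparison 10.6% of the genes tested passed downwards and 15.7% upwards. Within experiment 1 alone the 17 mM array lay 1.66 below the sham-treated tumour and 3.37 above the healthy bladder. Without the experiment as a block the difference was -1.30 and was not called (adjusted p = 0.121). Liver markers, which include genes expressed beside Arg1 in hepatocytes, were higher on the same array, 8 of 10 tested at 17 mM, and their part in the Arg1 value was not tested.

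At the lower doses Arg1 was 0.44 ± 0.15 lower than sham at 8.5 mM (adjusted p = 0.153) and 0.54 ± 0.15 lower at 1.7 mM (adjusted p = 0.345), neither of which passed. At 8.5 mM 4.65% of the genes passed downwards and 11.0% upwards, and none of the 5 members did. At 1.7 mM 0% of the genes passed in either direction with limma, although 1595 had an unadjusted p under 0.05. The direct difference between the 17 and 1.7 mM tumours was -1.05 ± 0.17 for Arg1 (adjusted p = 0.0597), in a comparison in which 4.06% of the genes passed upwards and 1.89% downwards. Between 17 and 8.5 mM it was -1.15 ± 0.17, with an unadjusted p of 0.00479 and an adjusted p of 0.99 (limma). In that comparison 0% of the genes passed, and 338 of the 11969 had an unadjusted p under 0.05.

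Chil3 and Msr1 were lower than sham at every dose without passing the test. For Chil3 the differences were -0.90, -0.43 and -0.74 at 1.7, 8.5 and 17 mM, each ± 0.16, with adjusted p-values of 0.27, 0.168 and 0.0572. For Msr1 they were -0.40, -0.90 and -1.08, each ± 0.43, with adjusted p-values of 0.742, 0.236 and 0.159. The Msr1 differences rested on the sham-treated tumour of experiment 1: without it the values were 0.44, -0.06 and -0.24. The 3 Msr1 probe sets above the filter were 1.21 to 1.46 below that array at 17 mM. Nos2 lay 0.27, 0.40 and 0.42 below sham at 1.7, 8.5 and 17 mM, each ± 0.12, with adjusted p-values of 0.455, 0.112 and 0.0858, and Trem2 lay 0.29, 0.24 and 0.29 above it, each ± 0.34, with adjusted p-values of 0.76, 0.659 and 0.571. Without that same sham-treated array Trem2 lay 0.94, 0.88 and 0.93 above sham, Arg1 was at -0.33 and -0.23 at 1.7 and 8.5 mM, and Chil3 was at -0.20 at 8.5 mM.

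**Figure D2:**
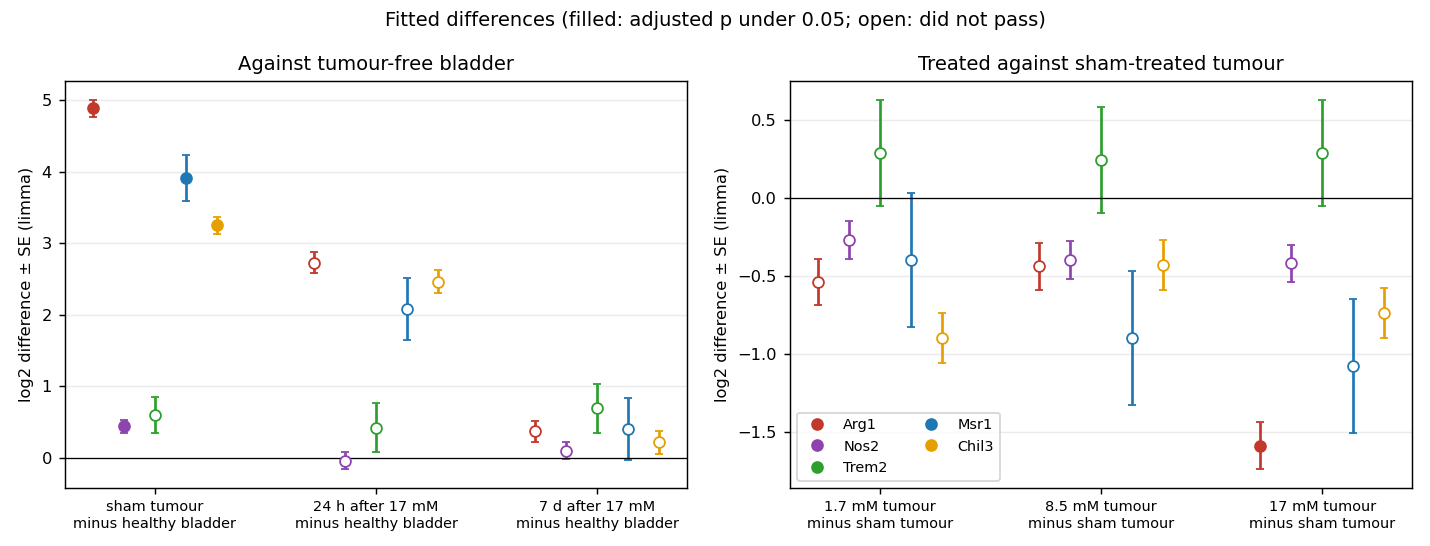
Fitted log2 differences with their SE (vertical axes) for the 5 genes against the healthy bladder (left) and against sham-treated tumours (right), filled where the adjusted p was under 0.05. Arg1, Nos2, Msr1 and Chil3 passed in sham-treated tumours (Nos2 was at -2.32 relative to the macrophage markers, a scaling that put the median of all genes at -2.77), and at the 3 doses Arg1 at 17 mM was the single filled point.

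Against the healthy bladder, Arg1 and Chil3 were still raised in the 17 mM tumour. The difference was 3.30 ± 0.15 for Arg1 (adjusted p = 0.0364) and 2.50 ± 0.16 for Chil3 (adjusted p = 0.0397), where 2.61% of the genes passed upwards and 0.368% downwards. Msr1 was 2.83 ± 0.43 higher without passing (adjusted p = 0.07), Trem2 was 0.89 ± 0.34 higher (adjusted p = 0.197) and Nos2 differed by 0.02 ± 0.12 (adjusted p = 0.923). As shares of the log2 rise from healthy bladder to sham-treated tumour within experiment 1, Arg1 kept 87.9, 89.9 and 67% at 1.7, 8.5 and 17 mM. Msr1 kept 84.8, 73.6 and 69.6%, and Chil3 kept 71.2, 85 and 75.9%. For Nos2, whose rise was 0.44, the shares were 38.6, 9.09 and 4.55%. On the linear scale of intensity the shares were smaller: 64.4, 69.3 and 29.5% for Arg1, 60.6, 41.5 and 36.1% for Msr1, and 45.5, 67.1 and 52.1% for Chil3.

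In bladders labelled healthy, the test of alpha1-oleate without a tumour gave no call for any member in the fit used, but 3 of them were called at 24 h in other fits. At 24 h after 17 mM, Arg1 was 2.73 ± 0.15 higher than in healthy bladder (adjusted p = 0.0577), Chil3 2.46 ± 0.16 higher (adjusted p = 0.0613) and Msr1 2.08 ± 0.43 higher (adjusted p = 0.165). Nos2 and Trem2 differed by -0.04 and 0.42. The pan-macrophage markers described below had a median of 2.44 in the same comparison, and their part in these values was not tested. No gene passed in this comparison (0% in either direction, with 2503 at an unadjusted p under 0.05), and the proliferation and liver markers on that array, given above, moved with these values. Arg1 and Chil3 were called at 24 h without the block (adjusted p = 0.0011 and 0.0148), after joint quantile normalization (0.00267 and 0.00308), with the mean of probe sets (0.0416 and 0.0427) and with a variance trend (0.036 and 0.0401). Arg1 was also called with the lowest 50% of genes left out (0.0446), and Msr1 without the block (0.0462) and after joint normalization (0.0257). At 7 d the 5 differences lay between 0.10 for Nos2 and 0.69 for Trem2, and again 0% of the genes passed in either direction, with 1096 at an unadjusted p under 0.05. Within experiment 2 alone the 7 d differences were 0.3 for Arg1, 0.48 for Trem2, 0.12 for Msr1 and 0.14 for Chil3, and without the healthy bladder of that experiment they were 0.58, 1.34, 1.24 and 0.45. The pan-macrophage markers had a fitted median of 0.91 above healthy bladder at 7 d.

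Set against the sham-treated tumours, the same 24 h array had 2 members lower. Arg1 lay 2.16 ± 0.15 below them, or 4.47-fold (adjusted p = 0.0142, limma), and Chil3 0.79 ± 0.16 below (adjusted p = 0.0477), where 13.6% of the genes passed downwards and 17.0% upwards. The Chil3 call was lost without the block (adjusted p = 0.163), without the filter (0.0608) and with a variance trend (0.0525). Msr1 lay 1.83 ± 0.43 below (adjusted p = 0.0592), Nos2 0.48 ± 0.12 below (adjusted p = 0.0622) and Trem2 0.18 ± 0.34 below (adjusted p = 0.707).

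Whether the 5 genes moved as macrophage content did was read from 16 pan-macrophage markers, such as the surface proteins Adgre1 and Csf1r, the lysosomal Cd68 and the C1q chains. In sham-treated tumours 15 of the 16 rose and none fell, beside 28.6% each way over all genes, with a median of 3.11, against -0.01 over all genes. Aif1 rose by 4.51, Fcgr1 by 4.26 and Fcer1g by 3.76. At 17 mM 3 of the 16 fell, beside 10.6% of all genes, namely Fcgr1 (-0.84), Fcer1g (-0.79) and Cd14 (-0.78), and the median was -0.46, against -0.05 over all genes. At 8.5 and 1.7 mM none of the 16 passed, with medians of -0.12 and 0.14.

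On each treated array Arg1 and Msr1 lay further below the sham-treated tumour of their experiment than any of the 16 markers. At 17 mM Arg1 was at -1.66 and Msr1 at -1.36, while the markers ranged from -1.05 to 0.02 with a median of -0.52. At 8.5 mM Arg1 was at -0.51 and Msr1 at -1.18, with markers from -0.48 to 0.45, and at 1.7 mM they were at -0.61 and -0.68, with markers from -0.3 to 0.48. On the 24 h array they were at -2.09 and -1.55, with markers from -1.32 to 0.2. Chil3 was below all 16 at 1.7 and 8.5 mM, while 4 markers were lower at 17 mM. Trem2 stood above all 16 at 17 mM, at 0.07. The 3 doses share 1 sham-treated array, so they are not independent repeats. The fitted Msr1 differences rested on that array, as given above, and how many of all genes lay below the markers was not counted.

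**Figure D3:**
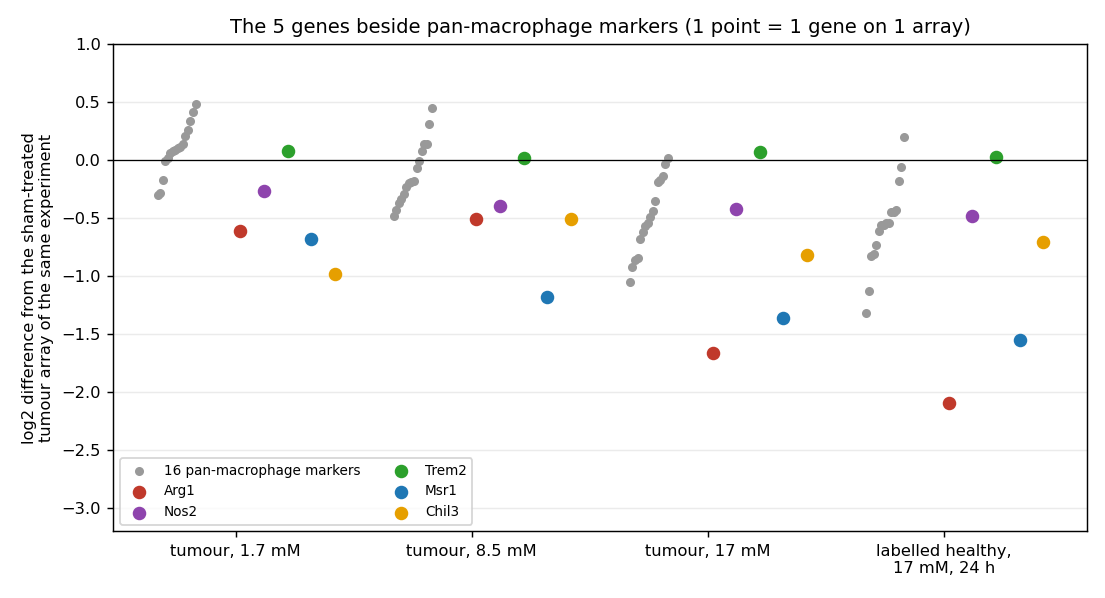
Log2 difference from that experiment's sham-treated tumour (vertical axis) for 16 pan-macrophage markers (grey, sorted) and the 5 genes (coloured) on the 3 treated tumours and the array labelled healthy at 24 h. Arg1 and Msr1 lie below every marker on all 4 arrays, and Trem2 stays between 0.02 and 0.08.

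When each array was set relative to the mean of its 16 markers, a scaling added after the data were seen, Arg1 still rose in sham-treated tumours, by 2.13 ± 0.10 (adjusted p = 0.000187, limma). Msr1 rose by 1.15 ± 0.28 (adjusted p = 0.0227) and Chil3 by 0.48 ± 0.10 (adjusted p = 0.0156). This scaling moved the median of all genes from -0.01 to -2.77 in that comparison. On it 1.66% of the genes passed upwards and 95.7% downwards, Nos2 and Trem2 among the latter, at -2.32 ± 0.10 and -2.16 ± 0.21, both above that median. At 17 mM Arg1 fell by 1.14 ± 0.13 relative to the markers (adjusted p = 0.0164), where 3.63% of the genes passed downwards and the median of all genes was 0.41. Msr1 at -0.63 ± 0.37, Chil3 at -0.29 ± 0.14, Nos2 at 0.03 ± 0.14 and Trem2 at 0.74 ± 0.28 did not pass, with adjusted p-values of 0.247, 0.175, 0.859 and 0.125.

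Neutrophil markers were likewise higher in sham-treated tumours, and several fell under treatment. Of 18 listed, 11 were tested: 8 rose in sham-treated tumours, 4 fell at 8.5 mM and 7 fell at 17 mM, where 28.6, 4.65 and 10.6% of all genes did. S100a8, a calcium-binding protein abundant in neutrophils, was at 3.38 in the healthy bladder of experiment 1, 10.14 in the sham-treated tumour and 8.17, 7.9 and 8.01 at 1.7, 8.5 and 17 mM. The list averaged 7.74 in that sham-treated tumour and 6.94, 6.17 and 6.13 at the 3 doses. Of the listed granule genes of immature neutrophils, Ngp and Elane were among the 11 tested. Ltf, Camp and Mpo were not tested, since their means fell below the filter, and their highest levels were 4.76, 4.74 and 3.86. The part of neutrophils in the Chil3 values was not tested.

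The genes around Arg1 and Nos2 in arginine use changed in both directions. Of 26 listed genes 21 were tested, and in sham-treated tumours 10 rose and 3 fell, beside 28.6% each way over all genes, with a median of 0.44. Arg1 and Nos2, among the 10, met the filter only through the arrays where they were high. The count that rose therefore cannot be weighed against that share. Arg2, the mitochondrial arginase, fell by 3.25 ± 0.10 (adjusted p = 0.0024, limma) while Arg1 rose. All 16 urothelium markers also fell in this comparison, with a median of -3.39, and their part in the Arg2 value was not tested. Odc1, which makes putrescine from ornithine, rose by 2.39 ± 0.28, the spermine synthase Sms by 1.80 ± 0.09 and the arginine importer Slc7a1 by 1.72 ± 0.09. Gch1, the first enzyme of the cofactor that nitric oxide synthases need, rose by 2.96 ± 0.24, whereas Pts, the next enzyme of that route, fell by 1.35 ± 0.11. Among the other nitric oxide synthases, the endothelial Nos3 rose by 0.69 ± 0.12 and the neuronal Nos1 differed by -0.06 ± 0.13.

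At 17 mM 4 of the 21 fell and 2 rose, with a median of -0.19, beside 10.6% down and 15.7% up over all genes, so that the 6 that passed are near the background share. Beside Arg1, Slc7a1 fell by 1.29 ± 0.12 (adjusted p = 0.0189), Sms by 1.27 ± 0.12 (adjusted p = 0.0185) and the argininosuccinate lyase Asl by 0.65 ± 0.12 (adjusted p = 0.0442). Arg2 rose by 1.18 ± 0.14 (adjusted p = 0.0229, limma), where 15 of 16 urothelium markers rose, with a median of 2.59. Cps1, the first urea cycle enzyme and a liver marker, rose by 1.84 ± 0.12 (adjusted p = 0.0159), on the array where Alb was 6.00 higher than in sham. At 8.5 mM Slc7a1 and Sms fell by 1.26 and 0.82, and Arg2 and Cps1 rose by 1.04 and 0.76. The comparisons with healthy bladder and with treated tumours share the sham-treated arrays.

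**Figure D4:**
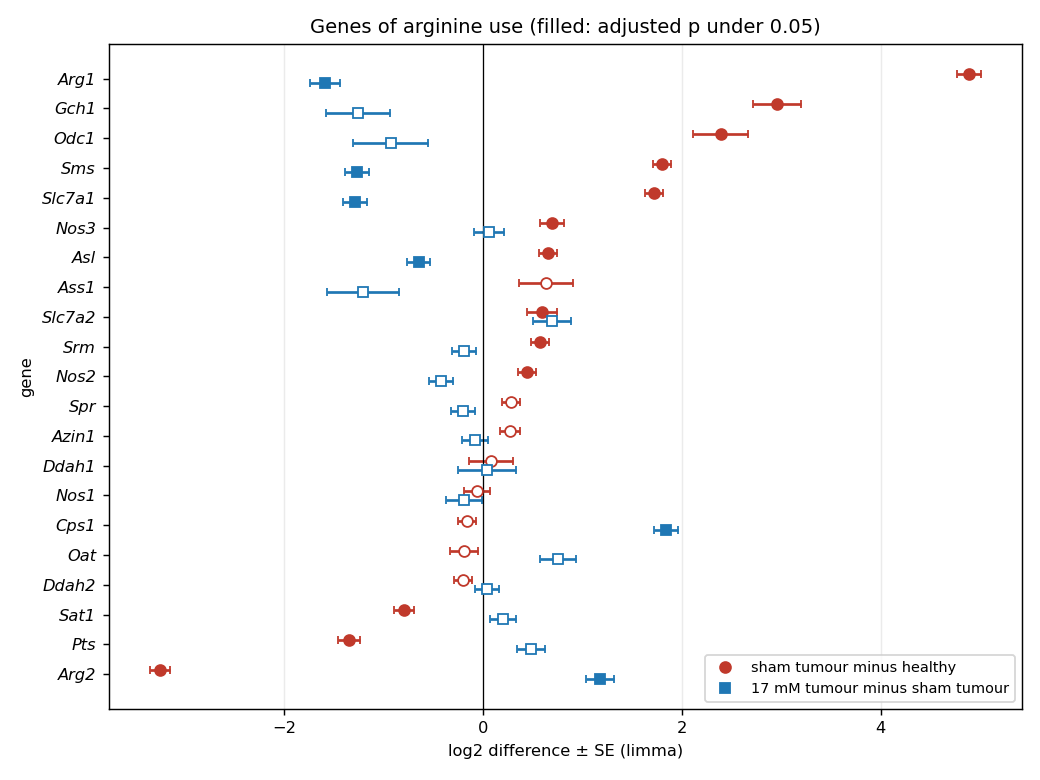
Fitted log2 differences with their SE (horizontal axis) for the 21 tested genes of arginine use (vertical axis), for sham-treated tumour minus healthy bladder (red circles) and 17 mM tumour minus sham-treated tumour (blue squares), filled where the adjusted p was under 0.05. Arg1 at 4.89 and Arg2 at -3.25 are the extremes of the first comparison, Cps1 at 1.84 and Arg1 at -1.59 those of the second, and both share the sham-treated arrays.

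Of the genes of classical activation that belong with Nos2, 20 of 26 listed were tested and 19 rose in sham-treated tumours, Nos2 among them, beside 28.6% of all genes, with a median of 1.97. Nos2 met the filter only through the arrays where it was high, so this count cannot be weighed against that share. Cxcl9 and Cxcl10, chemokines induced by interferon-gamma, rose by 5.97 ± 0.18 and 5.67 ± 0.32, and the cytokine Il1b by 3.83 ± 0.41. Ifng and Il6 were not tested, since their means over the 9 arrays fell below the filter, although they reached 5.45 and 5.6 on their highest array. At 17 mM 8 of the 20 fell and none rose, beside 10.6% and 15.7% of all genes, with a median of -0.95: Acod1, which makes itaconate, was at -1.95 ± 0.15, the co-stimulatory receptor Cd40 at -1.63 ± 0.19, Cxcl9 at -1.56 ± 0.23 and Nfkbiz at -1.51 ± 0.15. At 8.5 mM 2 fell, beside 4.65% of all genes, Nfkbiz at -1.57 and Acod1 at -1.01.

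The alternative activation list, to which Chil3 belongs, had 19 of 25 genes tested, and 13 rose, Chil3 among them, and 1 fell in sham-treated tumours, beside 28.6% each way over all genes, with a median of 1.15. Chil3 met the filter only through the arrays where it was high, so the count that rose cannot be weighed against that share. The chemokine Ccl24 rose by 4.80 ± 0.24, the transcription factor Egr2 by 3.90 ± 0.27 and the beta-glucan receptor Clec7a by 3.77 ± 0.27. Il4, Il13 and Il10 had means below the filter, with highest levels of 3.37, 3.46 and 3.85. At 17 mM the lectin receptor Clec10a rose by 1.15 ± 0.13 (adjusted p = 0.0229, limma) and the PD-1 ligand Pdcd1lg2 fell by 1.22 ± 0.21 (adjusted p = 0.0384). The other 17 tested genes did not pass, with a list median of -0.27. Over all genes 15.7% passed upwards and 10.6% downwards there, so this list held no excess of calls.

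Several scavenger receptors rose at 17 mM, where Msr1 was lower without passing. Of 18 listed 14 were tested, and in sham-treated tumours 6 rose, Msr1 among them, and 4 fell, beside 28.6% each way over all genes, Cd68 rising by 3.40 ± 0.09 and the mannose receptor Mrc1 by 2.07 ± 0.09. At 17 mM 5 rose and 1 fell, beside 15.7% and 10.6% over all genes: Colec12 rose by 2.67 ± 0.25, Scara5 by 2.57 ± 0.19, Scara3 by 2.25 ± 0.12 and Cd163, the haemoglobin scavenger of macrophages, by 1.82 ± 0.22. Colec12, Scara5 and Scara3 are class A receptors like Msr1 but are known from endothelium and stroma. On the 17 mM array all 10 tested smooth muscle markers and 15 of 16 urothelium markers were higher than in sham, and their part in these values was not tested.

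Genes of Trem2 signalling and of the lipid-laden macrophage changed in both directions in tumours, Trem2 not among those that passed. Of 21 listed 18 were tested, and 11 rose and 4 fell in sham-treated tumours, beside 28.6% each way over all genes, with a median of 0.90. Besides Tyrobp these were led by Itgax at 2.82 ± 0.23, Ms4a7 at 2.45 ± 0.09 and the protease Ctsl at 1.99 ± 0.09. At 17 mM Lgals3 (galectin 3) alone fell, by 0.63 ± 0.12 (adjusted p = 0.0437, limma), and nothing rose, with a median of -0.07. Over all genes 10.6% passed downwards and 15.7% upwards there, so this list held no excess of calls. Apoe, a ligand of Trem2, rose by 0.77 ± 0.12 at 8.5 mM (adjusted p = 0.0425).

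Genes that recruit monocytes and sustain macrophages were tested as a further group, 19 of 21 listed. In sham-treated tumours 18 rose, beside 28.6% of all genes, with a median of 2.05, among them the chemokines Ccl2 by 5.33 ± 0.27 and Ccl12 by 5.11 ± 0.24 and the growth factor Csf1 by 3.55 ± 0.10. At 17 mM 6 fell and none rose, beside 10.6% and 15.7% of all genes, with a median of -0.62: Ccl12 was at -1.74 ± 0.32, Il34, which shares the receptor of Csf1, at -1.67 ± 0.28, Csf1 at -1.43 ± 0.13 and Cx3cl1 at -1.16 ± 0.13. At 8.5 mM Csf1 fell by 1.16 ± 0.13 (adjusted p = 0.0307).

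The genes nearest to each member were those with the smallest mean absolute gap in the log2 difference from the same-experiment healthy bladder, over the 7 other arrays. For Arg1 these were Ccl24 at a gap of 0.19, Adam8 at 0.2, Tk1 at 0.25, Aif1 at 0.26 and Pbk at 0.31. Ccl24 lay 5.21, 4.32, 4.4 and 3.58 above healthy in the sham-treated, 1.7, 8.5 and 17 mM tumours of experiment 1, beside 5.03, 4.42, 4.52 and 3.37 for Arg1. Tk1 and Pbk are genes of dividing cells, and Aif1 and Adam8 are known from myeloid cells. For Msr1 they were Itgal at 0.09, Egr2 at 0.13, Slc15a3 at 0.16, Lcp2 at 0.17 and Zbp1 at 0.22, most of them genes of leukocytes. For Chil3 they were Plek at 0.25, Hmox1 at 0.26, Pilra at 0.27, Csf2rb at 0.29 and Ms4a6c at 0.3.

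For Trem2 the nearest genes were BC028528 at 0.13, the endothelial adhesion molecule Pecam1 at 0.17, Flt3 at 0.17, Il16 at 0.18 and Tfpi at 0.19. For Nos2, which hardly moved, they were Relt at 0.04, Ybx1, Plek2 and Sppl2b at 0.05 and Aen at 0.06. Among the members themselves the smallest gaps were 0.6 between Msr1 and Chil3 and 0.73 between Arg1 and Msr1, and the widest was 3.41 between Arg1 and Nos2. The gaps are a description of 7 differences that share 2 healthy bladders.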

How the data were processed

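The authors deposited log2 RMA intensities of 45077 probe sets on 9 Affymetrix arrays, made with Transcriptome Analysis Console 4.0.1.36, per the submitters' processing notes. Per the labels' protocols, 100 ng of total RNA per array was amplified and labelled; a genome build for the probes is not given in the sources used here. Probe sets were named through the array's platform annotation: 28898 named 1 gene, 551 several and 15588 none, and 40 control probe sets were left out. For each of 17097 genes the probe set with the highest mean was kept, and the lowest 30% of genes by mean were left out. Platform symbols were updated by Entrez number where one matched.

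Group means with the experiment as a block were fitted to all 11969 genes at once with limma 3.58.1 (lmFit, eBayes, R 4.3.3), with 1 residual and 2.23 prior degrees of freedom. P-values were adjusted by Benjamini-Hochberg over those genes, and a gene passed at an adjusted p under 0.05. The labels give the experiment number. Same-numbered healthy and sham-treated arrays deviated together from their group means (correlation 0.647 across genes). The fit was tested on simulated data. Precision is limited by how few arrays each group has.

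The members, gene lists and tests were chosen with earlier results of these data known. The genes named are the members, up to 4 passing genes of each list per comparison (2 as values where none passed), the 5 nearest genes of each member, and Adgre1, Cd68, Csf1r, Tyrobp, S100a8 and Alb. Ngp and Elane are named without values. Of a list, genes that named no probe set were not analysed here; where a gene fell below the filter its level is given, and these and the further arginine genes were named after their values were seen. Alternatives were no replicate block, joint quantile normalization, other filters, the mean of a gene's probe sets, a variance trend, a fold threshold, each replicate left out and, added after the data were seen, scaling to the macrophage markers. Leaving out the 24 h array, the only one of its group, cannot change the other comparisons.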

Additional observations from a re-analysis of the deposited data

How the results depend on the processing

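Each result was recomputed under the alternatives named with the processing. The sign of the Arg1 differences in sham-treated tumours and at 17 mM held under every alternative run, and the Arg1 call in sham-treated tumours held in every fit with a test. Setting arrays relative to the macrophage markers moved the median of all genes in sham-treated tumours to -2.77, and with it Nos2 to -2.32 and Trem2 to -2.16. On this scaling 95.7% of all genes passed downwards, so the change of sign is not particular to these members. With single arrays per treated group and 1 residual degree of freedom, counts of calls depend heavily on the assumed spread.

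Without the experiment as a replicate block, 3172 genes instead of 6852 were called in sham-treated tumours, 1217 instead of 3147 at 17 mM, 945 instead of 1872 at 8.5 mM and 36 instead of 0 at 1.7 mM. In the other comparisons this fit called 590 instead of 356 (17 mM against healthy), 98 instead of 712 (17 against 1.7 mM), 3 instead of 0 (17 against 8.5 mM), 126 instead of 0 (24 h against healthy), 15 instead of 0 (7 d) and 1391 instead of 3657 (24 h against sham). Of the 5 members it called 0 instead of 1 at 17 mM and 3 instead of 0 at 24 h against healthy. It also called Msr1 for 17 mM against healthy (3.02, adjusted p = 2.84e-06) and at 24 h against sham (-2.02, adjusted p = 0.00342), and lost Nos2 in sham-treated tumours and Chil3 at 24 h against sham.

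Leaving out 1 PBS array in turn together with the block gave 2230 to 2807 genes in sham-treated tumours, 850 to 1378 at 17 mM, 519 to 1125 at 8.5 mM, 7 to 212 at 1.7 mM, 244 to 676 for 17 mM against healthy, 46 to 198 for 17 against 1.7 mM, 3 to 3 for 17 against 8.5 mM, 76 to 153 at 24 h against healthy, 7 to 21 at 7 d and 1008 to 1496 at 24 h against sham. The members called ranged from 0 to 0 at 17 mM, 0 to 3 at 24 h against healthy and 1 to 3 at 24 h against sham. With the block kept no residual degree of freedom was left, so these were values with no test, and Arg1 at 17 mM then lay between -1.66 and -1.38.

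Joint quantile normalization moved the median of all genes at 17 mM from -0.05 to -0.12 and called 3472 genes at 8.5 mM, 2270 for 17 mM against healthy, 2671 for 17 against 1.7 mM, 833 at 24 h and 7 at 7 d against healthy. It called 3 members at 17 mM, 1 at 8.5 mM, 1 for 17 against 1.7 mM, 3 at 24 h against healthy and 4 at 24 h against sham. Without the filter 202 genes were called for 17 mM against healthy, 0 for 17 against 1.7 mM, and 1 member at 24 h against sham. With the lowest 50% left out, which removes Nos2, Trem2 and Chil3 from testing, 577 genes were called for 17 mM against healthy and 121 at 24 h. The members called were then 2 in sham-treated tumours, 1 for 17 mM against healthy, 1 for 17 against 1.7 mM, 1 at 24 h against healthy and 1 at 24 h against sham. The mean of all probe sets called 684 genes for 17 mM against healthy, 1235 for 17 against 1.7 mM and 96 at 24 h, with 2 members at 17 mM, 1 for 17 against 1.7 mM and 2 at 24 h against healthy. A variance trend called 732, 1403 and 198 genes in the same 3 comparisons and 2 members at 24 h. Requiring at least a 2-fold change left 3489 genes in sham-treated tumours and 1956 at 17 mM. Except where fewer genes or arrays were tested, the cause was not tested.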
